A study of Mus musculus with 24 samples.

Results

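The kinesin family was examined in RNA from mouse pancreatic tumours. A gene was a member when it was protein coding and its symbol was Kif followed by a number, or Kifc followed by a number, which gave 42 of the 54532 genes in the deposited table. Of these, 12 were set apart as mitotic kinesins (Kif2c, Kif4, Kif11, Kif14, Kif15, Kif18a, Kif18b, Kif20a, Kif20b, Kif22, Kif23 and Kifc1). The other 30 were kept together and mostly carry cargo, build cilia or trim microtubules. The split does not mean that none of the 30 acts in mitosis. The family was chosen by measured values, because Kif20a and Kif18b had already been called lower in IGEL than in PBS tumours when PBS replicate 5 was left out, so the values of that comparison are given below as a description without a test. The rule took in Kif1bp by its symbol, which encodes a kinesin binding protein and not a motor. A minimum on counts was passed by 40 members, 12 of 12 mitotic and 28 of 30 others. Kif28, with at most 6 reads in any library, and Kif2b, with 0 reads in all 24, did not pass it.

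The study compared 4 groups of 6 tumours collected on day 24: PBS, the control, GEM, IGEL and LIGEL. The series title speaks of losartan priming followed by a nanocarrier that delivers chemotherapy and immunotherapy, but the labels do not spell out GEM, IGEL or LIGEL, nor do they give the strain, the tumour line, the doses or the age of the mice. The sample titles say muscle while the tissue field says pancreatic tumour. Skeletal muscle markers took between 0.00061% and 0.0335% of the reads, and acinar enzyme genes, which mark the exocrine pancreas, took between 0.0027% and 29.4%.

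Kinesins are motors that burn ATP to walk along microtubules or to peel subunits from their ends. A dividing cell uses one set of them to push the spindle poles apart, to line up chromosomes and to build the cleavage furrow, and it makes these motors mainly in the G2 and M phases of the cycle. The other set works at all times, moving vesicles, mitochondria and ciliary cargo, and several of its members are known chiefly from neurons. In bulk tumour tissue, fewer cells of a type and less RNA per cell cannot be told apart.

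The promoters of the mitotic kinesins are shown first because the members described below moved together, and because genes of late mitosis are known for a short element, the cell cycle genes homology region or CHR, that lies near the start site and binds the DREAM and MuvB complexes. RefSeq promoter windows, from 250 bases before to 50 bases after a start site on GRCm38.p6, were found for 32 of 42 members, 11 mitotic and 21 other. In the sequences that follow, capitals mark TTTGAA, the core letters of the CHR, and CCAAT, the box bound by NF-Y, on either strand (TTCAAA and ATTGG when read in reverse). The first 4 sequences are mitotic members that hold both elements, namely Kif18b (chr11:102925075-102925374, minus strand), Kif11 (chr19:37376132-37376431, plus strand), Kifc1 (chr17:33890584-33890883, minus strand) and Kif23 (chr9:61946750-61947049, minus strand). The last 2 sequences hold neither, namely Kif18a (chr2:109280488-109280787, plus strand), the mitotic window without a CHR, and Kif3c (chr12:3364882-3365181, plus strand), the transport member with the largest positive log2 fold change in LIGEL.
Kif18b: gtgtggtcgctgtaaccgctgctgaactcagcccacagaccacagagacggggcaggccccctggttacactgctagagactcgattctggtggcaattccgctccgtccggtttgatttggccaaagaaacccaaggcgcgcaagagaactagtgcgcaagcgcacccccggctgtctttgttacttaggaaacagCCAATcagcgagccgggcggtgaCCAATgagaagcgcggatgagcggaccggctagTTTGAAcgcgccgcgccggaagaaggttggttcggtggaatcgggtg
Kif11: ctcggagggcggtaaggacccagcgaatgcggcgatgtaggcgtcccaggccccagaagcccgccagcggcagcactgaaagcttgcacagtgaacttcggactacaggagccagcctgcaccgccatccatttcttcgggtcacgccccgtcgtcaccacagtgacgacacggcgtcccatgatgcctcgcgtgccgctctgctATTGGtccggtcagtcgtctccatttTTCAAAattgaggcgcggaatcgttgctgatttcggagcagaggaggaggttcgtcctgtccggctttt
Kifc1: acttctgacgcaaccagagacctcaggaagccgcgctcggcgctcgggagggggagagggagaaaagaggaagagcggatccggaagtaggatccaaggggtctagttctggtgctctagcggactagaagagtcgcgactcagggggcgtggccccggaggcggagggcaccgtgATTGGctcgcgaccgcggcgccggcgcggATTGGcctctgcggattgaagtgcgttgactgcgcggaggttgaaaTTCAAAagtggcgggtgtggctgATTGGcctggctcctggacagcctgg
Kif23: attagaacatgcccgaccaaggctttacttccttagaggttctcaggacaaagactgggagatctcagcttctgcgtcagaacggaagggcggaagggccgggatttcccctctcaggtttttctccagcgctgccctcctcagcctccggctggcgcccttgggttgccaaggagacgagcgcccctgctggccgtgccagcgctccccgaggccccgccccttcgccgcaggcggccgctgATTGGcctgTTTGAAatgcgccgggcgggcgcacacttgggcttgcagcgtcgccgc
Kif18a: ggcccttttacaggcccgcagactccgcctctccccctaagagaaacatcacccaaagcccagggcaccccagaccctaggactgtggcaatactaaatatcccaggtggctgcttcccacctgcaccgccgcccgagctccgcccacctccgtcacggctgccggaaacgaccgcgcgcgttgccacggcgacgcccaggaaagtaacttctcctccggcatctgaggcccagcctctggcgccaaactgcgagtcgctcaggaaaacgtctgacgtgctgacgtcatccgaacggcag
Kif3c: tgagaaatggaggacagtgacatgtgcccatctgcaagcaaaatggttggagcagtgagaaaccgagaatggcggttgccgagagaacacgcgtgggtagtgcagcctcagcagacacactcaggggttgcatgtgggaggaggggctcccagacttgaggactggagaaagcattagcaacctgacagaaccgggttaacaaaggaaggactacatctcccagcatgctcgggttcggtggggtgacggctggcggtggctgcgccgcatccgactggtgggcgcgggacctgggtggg

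The letters TTTGAA were found in 10 of the 11 mitotic windows (90.9%) and in 3 of the 21 other ones (14.3%), those of Kif26b, Kif1a and Kif27. Among all 27025 mouse genes with a window the share was 20.2%, and among the 12595 genes that were both tested here and had a window it was 15.2%. In 8 of the 11 mitotic windows (72.7%) the element lay within 50 bases of the start site, against 2 of 21 other members (9.52%) and 5.72% of all genes. This distance was chosen after the positions had been seen. With the first transcribed base counted as 1 and the base before it as -1, the element began at position -19 in Kif11, -17 in Kif22, 2 in Kifc1, 3 in Kif23 and 4 in Kif18b. The windows of Kif2c and Kif14 held it farther upstream, beginning at positions -103 and -228, and the RefSeq starts of these genes lie 3867 and 1505 bases downstream of the gene starts in the deposited table. The Kif1a match, counted among the 2 of 21, was in a window whose start lies 19471 bases downstream of the deposited gene start. Its other window, 77 bases from that gene start, held 0 matches. The RefSeq start of Kif27 lies 4175 bases downstream.

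**Figure D1:**
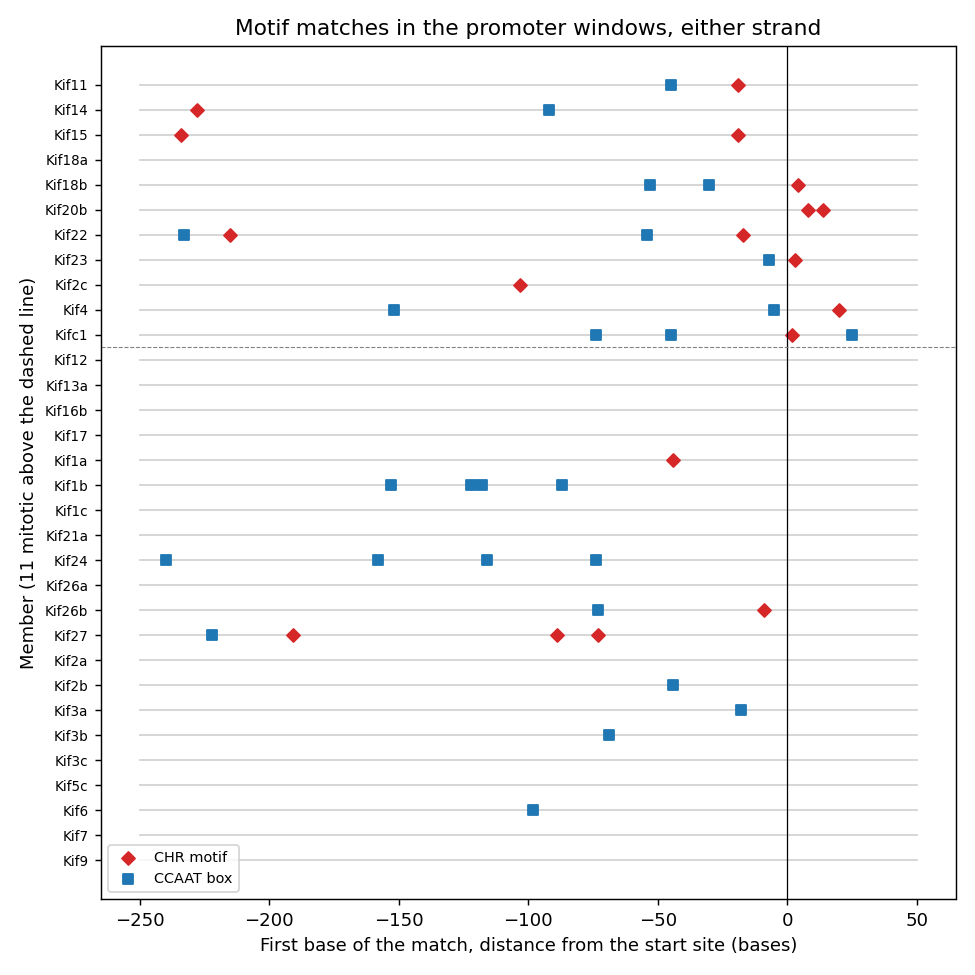
Matches to TTTGAA (CHR, diamonds) and CCAAT (squares) on either strand in the promoter windows of 32 members, one line per member, with the distance of the first base from the RefSeq start site in bases on the x axis. The CHR lies within 50 bases of the start in 8 of the 11 mitotic windows and in 2 of the 21 others.

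CCAAT stood in 7 of 11 mitotic windows (63.6%) and in 8 of 21 others (38.1%), beside 41.1% of all genes. Both elements together stood in 7 of 11 mitotic windows and in 2 of 21 others, beside 7.97% of all genes. The E2F letters TTTGGCGC, searched on both strands, were in 2 mitotic windows, Kif15 and Kif18a, in 0 others and in 0.585% of all genes. The related letters TTTCCCGC were in 0 members. The GC box GGGCGG, which binds Sp1, was in 6 of 11 mitotic and 15 of 21 other windows. Overlaps between matches of different motifs were allowed. In a list of 39 other spindle, kinetochore and cytokinesis genes, 23 of 34 windows (67.6%) held TTTGAA, against 4 of 22 DNA replication windows (18.2%), 1 of 16 dynein and dynactin windows (6.25%) and 0 of 14 windows of intraflagellar transport genes. A match describes the letters in a window and is not evidence of binding.

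Levels between genes were compared as CPM, the reads of a gene scaled to a fixed library total, per kilobase of gene length, averaged over the 24 tumours. Kif1c, a Golgi and cargo motor, had the highest level of the family at 32.4 ± 4.71 CPM per kb (mean ± SD, n = 24). Kif21a, which slows microtubule growth at the cell edge, followed with 27.1 ± 8.33, and Kif5b, the broadly expressed kinesin-1 heavy chain, with 26.5 ± 4.27. The spread of these 3 levels over tumours overlapped.

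The highest mitotic members came next: Kifc1, which slides and bundles spindle microtubules toward their minus ends, had a level of 22.04 ± 9.83 CPM per kb. Kif20a, the cytokinesis kinesin also called MKLP2, had 19.2 ± 9.85, and Kif11, the bipolar motor that pushes spindle poles apart, had 17.9 ± 7.23. The lowest mitotic member was Kif18a, which dampens chromosome movement in metaphase, at 1.88 ± 0.63, rank 28 of 42. Members known mainly from neurons were low: Kif5c had 1.22, Kif1a 0.433 and Kif5a 0.296 CPM per kb. Among members tied to motile cilia or to cilium length, Kif19a had 1.25, Kif9 0.385, Kif27 0.133 and Kif6 0.0431 CPM per kb.

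**Figure D2:**
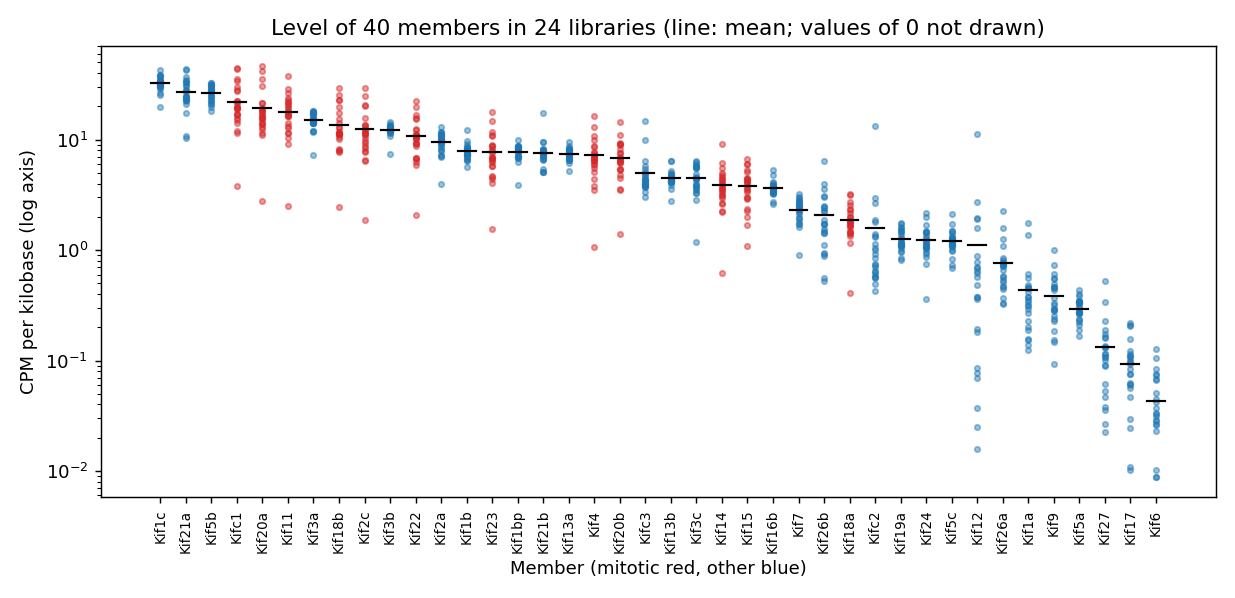
Level of the 40 members that passed the minimum, in CPM per kb of gene length on a log axis, with a point for each of 24 tumours, a line for the mean, mitotic members in red and others in blue, and values of 0 not drawn. The means of the mitotic members lie between 1.88 (Kif18a) and 22.04 (Kifc1) CPM per kb, within the range of the others, and the single low red point of each mitotic member is PBS replicate 5.

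The libraries held 27066563 to 40521434 counted reads. PBS replicate 5 stood apart: acinar genes took 29.4% of its reads, against a median of 1.95% in the PBS group, its scaling factor was 0.548 where the other 23 libraries lay between 0.850 and 1.09, and it had the fewest reads. All 12 mitotic kinesins were lowest of the 24 tumours in this library. Their summed level was 113 CPM in PBS replicate 5, while the next lowest PBS tumour had 769 CPM. Of the 28 other members, 12 lay below the remaining 5 PBS tumours, 9 above them and 7 within their range. Those at the top of all 24 tumours included Kif21b, a motor of neurons and lymphocytes, at 211 CPM, Kifc3, a minus-end motor of epithelial junctions, at 77.9, Kifc2, a neuronal minus-end motor, at 52.3, and Kif12 at 38.0. Fold changes against PBS are therefore given with all 24 libraries and without PBS replicate 5, a choice made with these values known. The part of acinar content in the levels of this library was not tested.

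**Figure D3:**
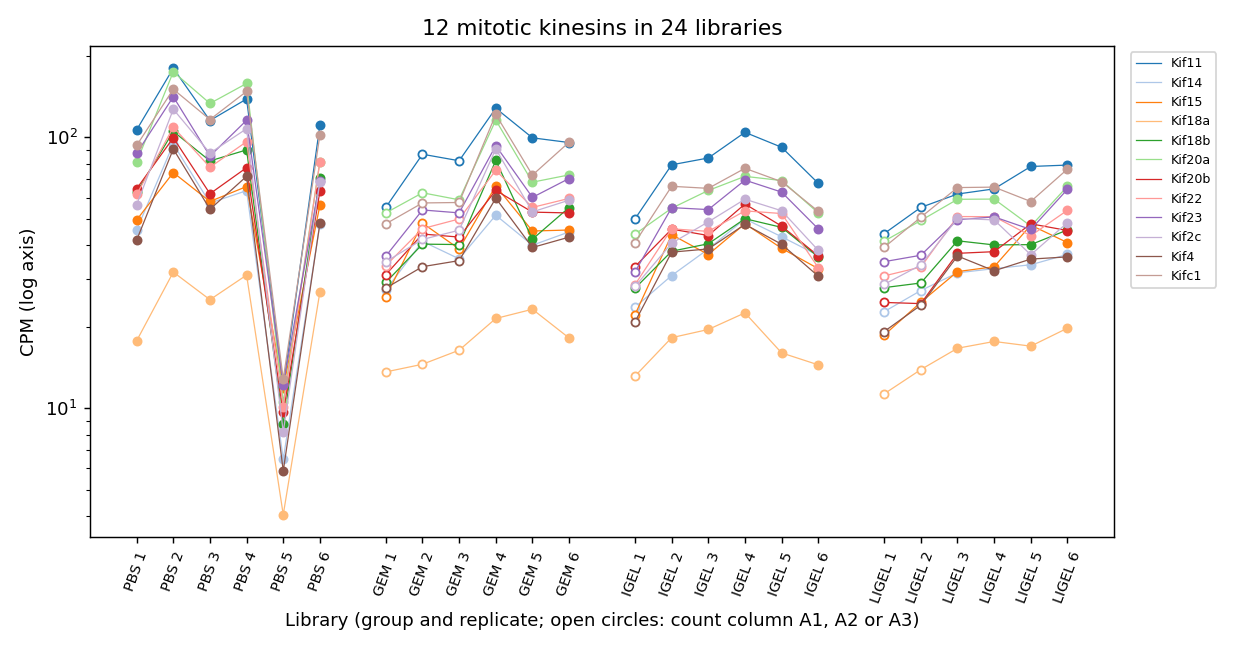
Level of the 12 mitotic kinesins in CPM on a log axis in each of the 24 tumours, ordered by group and replicate on the x axis, with a coloured line per gene that has no meaning as a trend between tumours, and open circles for tumours in columns A1 to A3. All 12 genes are lowest in PBS replicate 5, and the remaining PBS tumours lie above all 6 LIGEL tumours for 11 of 12 genes.

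Over the groups, the mitotic kinesins were highest in PBS tumours. Their summed level had a median of 890.2 CPM in PBS (range 113 to 1378), 611 in GEM (416 to 969.6), 567 in IGEL (365 to 711) and 532 in LIGEL (344 to 613). Their share of all kinesin reads was 41.4% in PBS (7.95% to 50.9%), 31.0% in GEM (21.8% to 43.0%), 30.4% in IGEL (18.5% to 35.1%) and 28.9% in LIGEL (18.2% to 32.3%). Each treated group overlapped PBS through PBS replicate 5. Without that library, all 6 LIGEL tumours and all 6 IGEL tumours lay below the lowest PBS tumour in summed level, while GEM overlapped PBS. The IGEL separation describes the comparison that chose the family and supports nothing about it. The LIGEL separation rests on the same PBS tumours and is not independent of that choice. A sum over chosen genes has no share of all genes to set beside it.

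The comparison of LIGEL with PBS showed the lowest mitotic kinesins relative to the control. With all 24 libraries, 12 of 12 mitotic members were lower in LIGEL, with a median log2 fold change of -0.79, while the median of the 28 other members was -0.06 and that of all genes tested -0.03. None of the 12 passed an adjusted p of 0.05 in edgeR's quasi-likelihood test with Benjamini-Hochberg adjustment, where 0 of 19253 genes (0%) were called. At an unadjusted p under 0.05, 11 of 12 mitotic members were lower, beside 20.5% of all genes in either direction. Without PBS replicate 5, the median log2 fold change was -1.02 and 11 of 12 mitotic members were called lower, where 0.748% of the 19525 genes tested were called lower. In 11 of 12, every LIGEL tumour lay below every remaining PBS tumour, which held for 1.33% of all genes. These calls rested on few libraries: of 12 mitotic members, 0 were called when PBS replicate 2 was also left out, 4 without LIGEL replicate 1, 5 without LIGEL replicate 2 and 5 without PBS replicate 4. The PBS tumours of this comparison are the same ones against which the family was chosen in IGEL tumours, so it is not independent of that choice.

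Among the motors of spindle assembly, Kif11 had 11.96 CPM in the lowest PBS tumour (PBS replicate 5), 107 in the next, a median of 113 and a highest value of 180.0, while LIGEL tumours had 44.2 at the lowest, 63.2 at the median and 79.0 at the highest. All LIGEL tumours were below every PBS tumour other than PBS replicate 5. The log2 fold change was -0.79 ± 0.35 (SE) with all libraries and -1.03 ± 0.20 without PBS replicate 5, with an adjusted p of 0.0146 in edgeR's test. Kif15, which backs up Kif11 in holding the spindle open, had 11.9 CPM in PBS replicate 5, 49.6 to 74.2 in the other PBS tumours and 18.6 to 47.4 in LIGEL. Its groups also separated without PBS replicate 5, but its log2 fold change of -0.68 ± 0.30 with all libraries and -0.89 ± 0.22 without that one (adjusted p 0.0627, edgeR) was not called.

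Kifc1 had 12.8 CPM in PBS replicate 5, 93.4 to 151 in the other PBS tumours and 39.3 to 76.4 in LIGEL, with a log2 fold change of -0.81 ± 0.35 with all libraries and -1.04 ± 0.22 without that library (adjusted p 0.0201, edgeR). Kifc1 shares 47.6% of its 50-base words with other genes, chiefly Kifc5b, so reads could have been assigned to either copy. Kifc5b itself, which is not a member by the rule, had a log2 fold change of -0.79 ± 0.29 with all libraries and -0.99 ± 0.20 without PBS replicate 5 (adjusted p 0.0151, edgeR). Of the other members, none shared more than 3.04% of its words.

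Kinesins that set chromosome position and microtubule length were lower too. Kif18b, a kinesin-8 that shortens astral microtubules, had 8.78 CPM in PBS replicate 5, 62.8 in the next PBS tumour, a PBS median of 76.5 and a highest value of 105, against 27.9, 40.2 and 45.5 in LIGEL. The groups were apart except for PBS replicate 5. The log2 fold change was -0.91 ± 0.34 with all libraries (adjusted p 0.158) and -1.14 ± 0.21 without that library (adjusted p 0.0107, edgeR).

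Kif2c, the depolymerase that corrects wrong attachments at kinetochores, had 56.4 to 127 CPM in PBS outside PBS replicate 5 and 28.7 to 50.2 in LIGEL, a log2 fold change of -0.88 ± 0.37 with all libraries and -1.12 ± 0.24 without that one (adjusted p 0.0253, edgeR). Kif22, which pushes chromosome arms outward, had 61.6 to 109 CPM in those PBS tumours and 30.8 to 53.9 in LIGEL (-0.73 ± 0.33, then -0.96 ± 0.20, adjusted p 0.0201, edgeR). Kif4, a chromokinesin that also shapes the central spindle, had 41.8 to 90.6 against 19.2 to 36.5 CPM (-0.77 ± 0.36, then -1.0 ± 0.23, adjusted p 0.0332, edgeR). For these 3 genes the LIGEL tumours were below all PBS tumours but PBS replicate 5. Kif18a had the smallest difference, with 17.8 to 31.8 CPM in those PBS tumours and 11.3 to 19.8 in LIGEL. Its ranges overlapped, and its log2 fold change was -0.51 ± 0.29 with all libraries and -0.73 ± 0.17 without PBS replicate 5 (adjusted p 0.0484, edgeR).

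Of the cytokinesis kinesins, Kif20a had the lowest log2 fold change of the 12 mitotic members. It had 10.54 CPM in PBS replicate 5, 81.2 in the next PBS tumour, a median of 107 and a highest value of 175, while LIGEL tumours had 41.4, 54.2 and 66.0. No LIGEL tumour reached the level of a PBS tumour other than PBS replicate 5. The log2 fold change was -0.99 ± 0.36 with all libraries (adjusted p 0.150) and -1.23 ± 0.21 without that library (adjusted p 0.00929, edgeR), a level 57.3% lower. Kif20a overlaps Cdc23 on the opposite strand, and because the strand setting of the counting is not given, reads of the pair cannot be told apart in the shared stretch. Kif4 and Kif18a overlap Pdzd11 and Mettl15 in the same way.

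Kif23, the motor of the centralspindlin complex, had 68.9 to 141 CPM in PBS without PBS replicate 5 and 34.8 to 64.3 in LIGEL, a log2 fold change of -0.86 ± 0.34 with all libraries and -1.08 ± 0.22 without that one (adjusted p 0.0193, edgeR). Kif20b, which acts in late cytokinesis, had 62.0 to 99.7 against 24.4 to 48.0 CPM (-0.79 ± 0.32, then -1.02 ± 0.19, adjusted p 0.0128, edgeR). Kif14, which brings citron kinase to the midbody, had 45.6 to 94.5 against 22.7 to 37.0 CPM (-0.77 ± 0.33, then -1.0 ± 0.19, adjusted p 0.0147, edgeR). All 3 separated LIGEL from the 5 remaining PBS tumours.

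In IGEL tumours, mitotic kinesins were also lower than in PBS, and since this is the comparison that led to the family, the values are given without a test. With all libraries, 12 of 12 were lower, with a median log2 fold change of -0.61 beside -0.05 for the other members and -0.02 for all genes, and 0% of genes were called. When PBS replicate 5 was left out, the median was -0.84. Kif20a and Kif18b were the members called in that fit, where 0.0922% of all genes were called. These calls are the ones that led to the family, so they give it no support. Kif20a had 43.9, 59.2 and 71.8 CPM at the lowest, median and highest IGEL tumour, below all PBS tumours but PBS replicate 5, and a log2 fold change of -1.09 ± 0.21. Kif18b had 27.8, 39.3 and 50.1 CPM and a log2 fold change of -1.05 ± 0.21. The next values outside the calls were those of Kif22 (-0.99) and Kifc1 (-0.98), and the smallest was that of Kif18a at -0.62. For 7 members, Kif11, Kif15, Kif18b, Kif20a, Kif20b, Kif22 and Kifc1, the IGEL tumours lay below the 5 remaining PBS tumours, beside 0.789% of all genes. This separation is a description of the values that chose the family and supports nothing about it.

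In GEM tumours, 12 of 12 mitotic members were lower than in PBS with all libraries, with a median log2 fold change of -0.42 beside -0.09 for the other members and -0.02 for all genes. None was called in edgeR's test, where 0% of genes were, and 0 had an unadjusted p under 0.05, beside 4.81% of genes. With PBS replicate 5 left out the median was -0.67, 0 of 12 were called by edgeR (0% of genes) and 11 of 12 had an unadjusted p under 0.05, beside 5.2% of genes. Voom with quality weights did call mitotic members in GEM, with all libraries and without PBS replicate 5, as given in the last section. The share of all genes it called is not given here, so those calls have no background. Kif20a had 52.6, 65.4 and 116 CPM at the lowest, median and highest GEM tumour, a log2 fold change of -0.82 ± 0.21 without that library (adjusted p 0.597, edgeR). The GEM tumours overlapped the remaining PBS tumours for all 12 members, where 0.133% of genes were lower without overlap. These 3 comparisons share the PBS tumours, so they are not independent of one another.

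**Figure D4:**
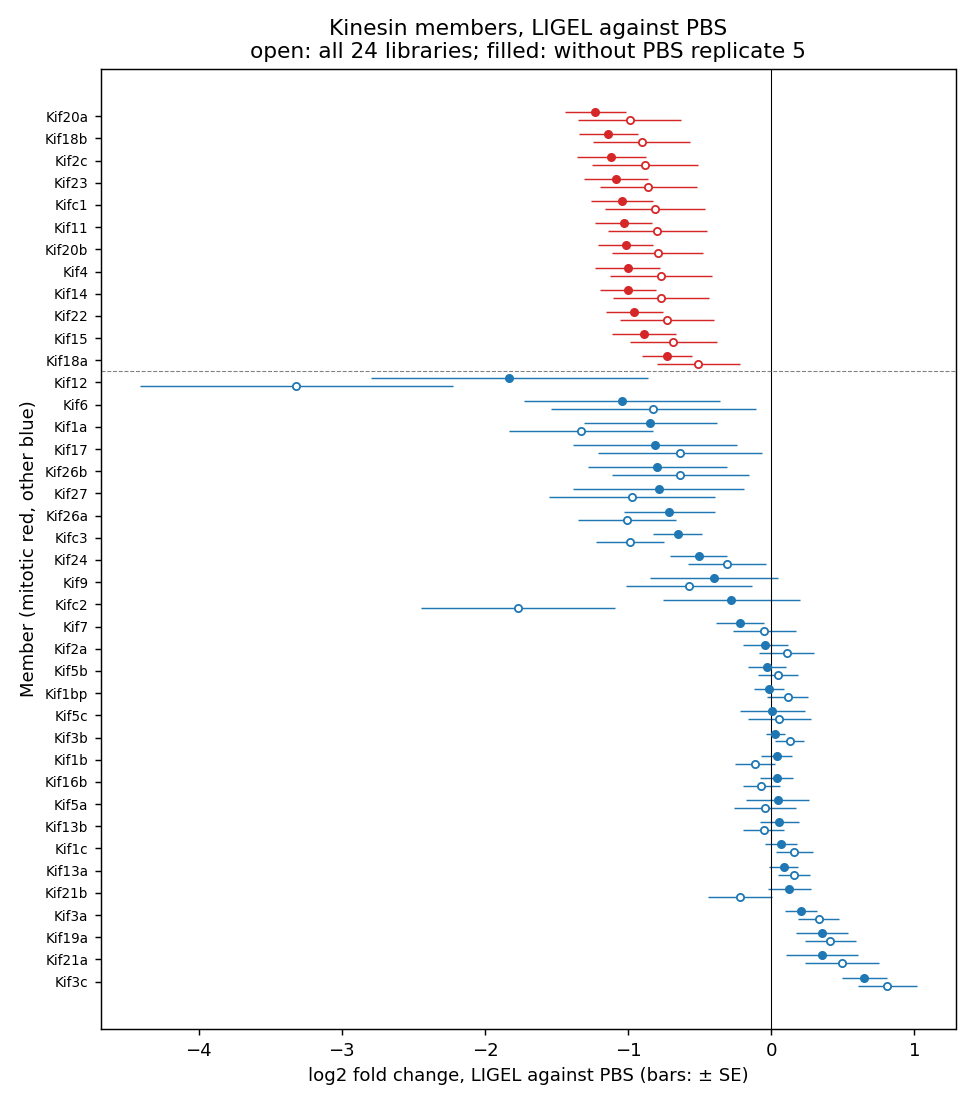
Log2 fold change of LIGEL against PBS for the 40 members that passed the minimum, open points with all 24 libraries and filled points without PBS replicate 5, bars for the SE, mitotic members in red and others in blue. The mitotic members lie below 0 in both settings, with medians of -0.79 and -1.02, while the others run from Kif12 at -3.32 to Kif3c at 0.81 with all libraries.

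Between treated groups, whose fold changes do not compare PBS tumours, no mitotic member passed the test. The spread in these tests was still fitted over all libraries, PBS replicate 5 included, so their p-values and SE are not free of that tumour. LIGEL was below GEM for 12 of 12 mitotic members, with a median log2 fold change of -0.38, beside -0.05 for the others and -0.01 for all genes. The largest was Kif11 at -0.52 ± 0.35 and the smallest Kif18a at -0.16 ± 0.29. None of the 12 was called by edgeR (0% of genes; 3.16% at an unadjusted p under 0.05), and all had an adjusted p of 0.999. IGEL was below GEM for 12 of 12 (median -0.24) and LIGEL below IGEL for 11 of 12 (median -0.16). In both, edgeR called 0 members and 0% of genes, and 0 mitotic members had an unadjusted p under 0.05, beside 1.58% and 1.26% of genes.

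The transport and ciliary members did not move as a group. Among the 28 that passed the minimum, 11 were higher and 17 lower in LIGEL than in PBS with all libraries, and edgeR called 0, while DESeq2 called 4 (Kif3c, Kifc3, Kif26a and Kif12) and voom with quality weights 2 (Kif3c and Kifc3). Their median of -0.06 turned to 0.10 without the scaling for library composition. The shares of all genes called by DESeq2 and voom are not given here, so the counts of those methods have no background. After PBS replicate 5 was left out, edgeR called 1, Kif3c, a kinesin-2 that pairs with Kif3a to carry cargo in neurons and other cells, where 0.138% of genes were called higher. Kif3c had 8.85 CPM in PBS replicate 5, 20.8 in the next PBS tumour, a median of 24.3 and a highest value of 29.2, while LIGEL tumours had 32.5, 37.8 and 47.7. All 6 LIGEL tumours lay above all 6 PBS tumours, which held for 0.649% of genes, and above the 5 left without PBS replicate 5, which held for 0.866%. The log2 fold change was 0.81 ± 0.20 with all libraries (adjusted p 0.124) and 0.65 ± 0.16 without PBS replicate 5 (adjusted p 0.0490, edgeR). With a further library left out, edgeR called Kif3c in 8 of 23 such fits, namely those without GEM replicate 1, 4, 5 or 6, IGEL replicate 4 or LIGEL replicate 4, 5 or 6, and the call was lost in the other 15, each of the 5 that left out a PBS tumour among them. Its log2 fold change was 0.42 ± 0.16 in GEM and 0.57 ± 0.16 in IGEL without PBS replicate 5. Kif3c overlaps the antisense gene 1110002L01Rik, whose mean was 7.43 CPM beside 33.0 for Kif3c.

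Kif3a, the partner of Kif3c and of Kif3b in ciliary transport, had 25.9 CPM in PBS replicate 5, a PBS median of 50.7 and a highest value of 55.1, with 53.7 to 64.5 in LIGEL. Its log2 fold change was 0.33 ± 0.14 with all libraries and 0.21 ± 0.11 without PBS replicate 5, and it was not called by edgeR. Kif21a had 66.4 to 197 CPM in PBS and 151 to 282 in LIGEL, overlapping ranges with a log2 fold change of 0.50 ± 0.26 with all libraries and 0.36 ± 0.25 without PBS replicate 5. Kif5b had 135 to 232 CPM in PBS and 154 to 222 in LIGEL, a log2 fold change of 0.05 ± 0.14 with all libraries and -0.03 ± 0.14 without PBS replicate 5. The neuronal heavy chains Kif5a (log2 fold change -0.04 with all libraries, 0.05 without PBS replicate 5) and Kif5c (0.06 and 0.01) were not called by edgeR.

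For several members that were lower in LIGEL, the value shrank when PBS replicate 5 was left out. Kif12, a kinesin of epithelia linked to cystic kidney disease in mice, had 0.656 to 38.0 CPM in PBS, the highest value being that library, a median of 2.22, and 0.0536 to 2.21 in LIGEL. Its log2 fold change was -3.32 ± 1.09 with all libraries and -1.83 ± 0.97 without it (adjusted p 0.131 and 0.367, edgeR), while DESeq2 with all libraries called it (adjusted p 0.0222). Kifc2 went from -1.77 ± 0.68 to -0.28 ± 0.48. Kif1a, which carries synaptic vesicle precursors, went from -1.33 ± 0.50 to -0.84 ± 0.47.

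Kifc3 was lower in LIGEL in both settings: it had 21.99 CPM at the lowest PBS tumour, a median of 27.2 and 77.9 in PBS replicate 5, against 15.9, 20.2 and 21.1 in LIGEL. The LIGEL tumours lay below all PBS tumours and also below all GEM tumours, whose lowest value was 21.4, beside 0.369% and 0.114% of genes. The log2 fold change against PBS was -0.99 ± 0.24 (adjusted p 0.124) and -0.65 ± 0.17 without PBS replicate 5 (adjusted p 0.0733, edgeR), so it was not called. Kifc2 overlaps Cyhr1 on the opposite strand.

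Members with roles at the centriole and cilium, and 2 others picked for their role, are given with the log2 fold change with all libraries and then without PBS replicate 5. Kif24, a depolymerase that holds back cilium growth, had 2.90 to 17.2 CPM in PBS and 5.96 to 10.8 in LIGEL (-0.31 ± 0.27, then -0.51 ± 0.20). Kif7, which sits at the cilium tip in Hedgehog signalling, had 4.12 to 14.7 and 7.41 to 12.9 (-0.05, then -0.22). Kif19a, which trims ciliary microtubules, had 3.31 to 5.63 in PBS and 4.47 to 7.21 in LIGEL (0.41 ± 0.18, then 0.35 ± 0.18). Kif2a, a depolymerase of the same family as the mitotic Kif2c, had 25.5 to 75.2 and 50.6 to 68.8 CPM (0.11, then -0.04). Kif26b, which takes part in kidney development, had 8.12 to 94.3 in PBS and 13 to 37.1 in LIGEL (-0.63 ± 0.48, then -0.80 ± 0.49). None of these was called by edgeR in either setting, and the ranges of each overlapped with all libraries. Kif24 was called by voom with quality weights without PBS replicate 5 (log2 fold change -0.59, adjusted p 0.0415).

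Across tumours, the mitotic kinesins varied together. Over deviations from the group means of log2 CPM, the 66 pairs of mitotic members had a median Pearson r of 0.97 (0.88 to 0.99) in 24 libraries and 0.89 (0.69 to 0.96) without PBS replicate 5. The 336 pairs of a mitotic with another member had medians of 0.08 and -0.08, and the 378 pairs of other members 0.04 and 0.09. These are descriptions over tumours, and values of 1 library share its scaling and its mix of cells. Without that library, Kif4 was the mitotic member closest to the rest (median r 0.93) and Kif18a the farthest (0.81). With all 24 libraries the farthest was Kif15 (0.94). Outside the 12, Kif24 was most like them without PBS replicate 5, with a median r of 0.75, followed by Kif12 at 0.50 and Kif26b at 0.45. With all 24 libraries Kif24 was again first (0.91), followed by Kif3b (0.77) and Kif7 (0.74). Kif26b then had 0.43 and Kif12 -0.16, so the place of Kif12 depended on leaving out that tumour. Kif1c (-0.64) and Kif19a (-0.63) ran most opposite to them without PBS replicate 5. With all 24 libraries these medians were 0.30 and -0.05, and Kif21b was the most opposite at -0.82 (-0.51 without PBS replicate 5).

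**Figure D5:**
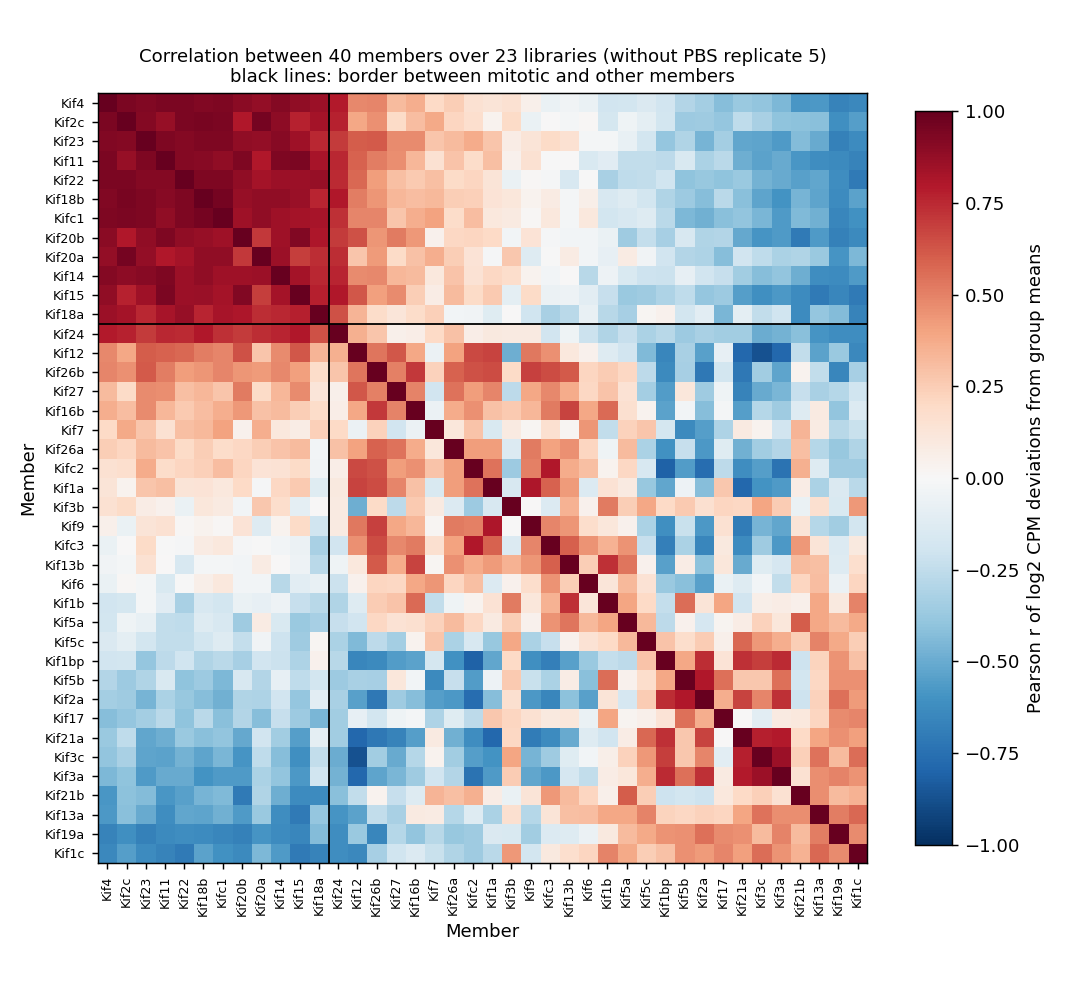
Pearson correlations of deviations from group means between the 40 members that passed the minimum, over 23 tumours without PBS replicate 5, coloured from -1 to 1, with black lines between mitotic and other members. The mitotic members form one block with a median r of 0.89, and Kif24 stands next to it.

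Some pairs of other members, picked here for their values, also had high correlations. Kif3a correlated with Kif3c at 0.86, with Kif21a at 0.79, with Kif1bp at 0.75 and with Kif2a at 0.73 over the 23 tumours, and Kif2a with Kif5b at 0.80. Kif5b had 0.27 with both Kif3c and Kif21a, and Kif2a had 0.49 with Kif3c. Kif12 had -0.87 with Kif3c, -0.79 with Kif21a and -0.32 with Kif5b.

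The partners of the 2 sets were compared through lists of genes. Of 39 other spindle, kinetochore and cytokinesis genes, 39 were lower in LIGEL with a median log2 fold change of -0.79, beside 53.5% of all genes lower. Without PBS replicate 5 the median was -0.99 and edgeR called 36 lower, where 0.748% of all genes were called lower. With all libraries edgeR called 0 genes of any list in this comparison, so the calls that follow are from the fit without that library. Cenpe, the kinetochore kinesin whose symbol the rule does not take in, had 14.5 CPM in PBS replicate 5, 162 to 290.0 in the other PBS tumours and 59.4 to 145 in LIGEL, a log2 fold change of -0.92 ± 0.37 with all libraries and -1.17 ± 0.21 without that one (adjusted p 0.0103, edgeR). Mki67, the proliferation marker Ki-67, had 51.7 CPM in PBS replicate 5, 371 to 689 in the others and 193 to 319 in LIGEL (-0.67 ± 0.34, then -0.90 ± 0.21, adjusted p 0.0357, edgeR).

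Of the DNA replication genes, 24 of 26 were lower with all libraries (median -0.25) and 26 of 26 without PBS replicate 5 (median -0.47), where 51.9% of all genes were lower, and edgeR called 0. Of 16 regulators of G2 and M genes, 1 was called lower, beside the same 0.748% of all genes, namely Foxm1, the forkhead factor of these genes, at -0.77 ± 0.18 (adjusted p 0.0463, edgeR). Kinesin light chains and adaptors, the cargo side of kinesin-1, had a median of 0.19 over 9 genes with 0 called, and Klc1, a light chain, was at 0.33 ± 0.11 (adjusted p 0.153, edgeR).

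Of 19 dynein and dynactin genes tested, 1 was called lower, the dynein partner Nde1 at -0.61 ± 0.13 (adjusted p 0.0237, edgeR), and the median was 0.01. Of 12 tubulins, 1 was called lower, Tubb4b at -0.62 ± 0.15 (adjusted p 0.0492, edgeR), and the median was -0.29. None of 17 intraflagellar transport genes was called (median -0.10).

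Markers of other cell types also differed in the same comparison, and edgeR called 0 of any of these lists in either setting. Of 10 T cell markers, 10 were higher in LIGEL, with a median log2 fold change of 0.77 with all libraries and 0.72 without PBS replicate 5, and they summed to 26.4 to 107 CPM in all PBS tumours and 33.3 to 101 in LIGEL. Of 9 fibroblast markers, 8 were lower with all libraries (median -0.67) and 9 without PBS replicate 5 (-0.83), summing to 5087 CPM in that library, 6764 to 35264 in the other PBS tumours and 5916 to 14391 in LIGEL. Of 10 ductal and tumour epithelium markers, 6 were lower with all libraries (-1.04) and 7 without it (-0.73), summing to 816 to 2056 CPM in PBS and 971 to 1145 in LIGEL. The sums of all 3 lists overlapped between the groups.

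Acinar, islet and endothelial markers were lower with all libraries, by medians that shrank without PBS replicate 5. Of 14 acinar markers, 14 were lower with all libraries (-2.98) and 9 without it (-0.51), summing to 3003 to 54309 CPM in the other PBS tumours and 102 to 66968 in LIGEL. Of 12 islet markers tested, 11 were lower in both settings (-2.96, then -1.55), and of 7 endothelial markers, 5 and then 6 were lower (-0.62, then -0.25). No T cell, fibroblast, ductal or endothelial marker was at 0 in any tumour, while Ptf1a, Rbpjl and Cuzd1 of the acinar list and several islet hormones were at 0 in some. The part of these lists in the mitotic values was not tested.

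The deposited columns named A1 to A3 hold GEM replicates 1, 2 and 3, IGEL replicate 1 and LIGEL replicates 1 and 2, and no PBS tumour. What these names stand for is not given in the sources used here. In each of the 3 treated groups, 12 of 12 mitotic kinesins were lower in these columns than in the rest of the same group, by a median log2 difference of -0.54 in GEM, -0.71 in IGEL and -0.56 in LIGEL, while the medians of the other members were 0.01, 0.04 and 0.12. With a term for these columns and without PBS replicate 5, the median log2 fold changes of the mitotic members against PBS were -0.41 in GEM, -0.76 in IGEL and -0.86 in LIGEL, and in LIGEL 11 of 12 were called by edgeR. The share of all genes called in that fit is not given here, so this count has no background. With those 6 tumours and PBS replicate 5 left out, 0 of 12 were called in any comparison with PBS, where 0 genes were called at all.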

How the data were processed

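RNA from 24 pancreatic tumours was measured as counts of reads per gene, deposited by the authors in one table of 54532 genes. The submitters' processing notes name HISAT2, featureCounts, Subread and the build mm10. Versions, the annotation release and the strand setting are not given in the sources used here. Columns were tied to samples through the column names in the labels. The members and all gene lists were chosen with earlier results of these data known. Genes under a minimum (filterByExpr, min.count 10, min.total.count 15) were dropped, which left 19253, and 0.0666% of counts fell in dropped genes. Counts were fitted in R 4.3.3 with edgeR 4.0.16 (TMM scaling, robust quasi-likelihood fit, 4 groups of 6, Benjamini-Hochberg over all genes, called under 0.05). CPM uses TMM-scaled totals, log2 CPM a prior count of 2, and the SE is the log2 fold change over the square root of F. Totals were 27066563 to 40521434 reads. On simulated LIGEL against PBS counts over 19253 genes, 75 of 100 genes changed by a log2 of 1 and 96 of 100 changed by 2 were recovered, with 6 false calls. Only better expressed genes were changed there, genes were drawn independently, and no tumour was given an outlying profile. These shares therefore do not measure the power of the comparison in the real tumours. DESeq2 1.42.0 and limma 3.58.1 (voom with quality weights) were alternatives, with other scalings, left-out libraries, a replicate block and a term for columns A1 to A3. Named genes were the 12 mitotic members, 10 others picked for their role, and the 2 other members with the largest rise and fall in each comparison among those with a mean of at least 1 CPM. Kif3c, Kifc3 and the correlated pairs were also described because of their values. The labels do not say that the 6 tumours of a group came from separate mice, so p-values measure the spread between these samples. Replicate numbers did not pair the samples in general, with exceptions given in the last section.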

Additional observations from a re-analysis of the deposited data

Results flagged for a closer look

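In groups of 6 tumours, 17 of the 112 groups tested had 1 tumour far from the other 5. Independent tests would give 5.6 by chance, but genes vary together within a tumour, so these numbers cannot be compared. Of the 17, 16 were in PBS replicate 5. All 12 mitotic kinesins were far below the rest of the PBS group in that tumour: Kif2c had 8.17 CPM, Kif4 5.88, Kif11 11.96, Kif14 6.48, Kif15 11.9 and Kif18a 4.05 CPM. Kif18b had 8.78 CPM there, Kif20a 10.54, Kif20b 9.66, Kif22 10.1, Kif23 12.2 and Kifc1 12.8 CPM. Of the other members, Kif3a was low at 25.9 CPM, Kif7 at 4.12 and Kif3c at 8.85 CPM, while Kif21b was high at 211 CPM. The same tumour had 29.4% of its reads in acinar genes, and the part of that content in these values was not tested. Outside PBS replicate 5, Kif5c was low in GEM replicate 2, at 4.91 CPM.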

How the results depend on the processing

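The direction of the mitotic medians against PBS held in every alternative run, from -0.88 to -0.16 in GEM, from -0.95 to -0.43 in IGEL and from -1.18 to -0.61 in LIGEL. The counts of calls did not hold. Those for IGEL describe the comparison that led to the choice of the family and support nothing. Most alternative runs below are given without the share of all genes they called. Their counts therefore do not show whether the calls are particular to the kinesins. Against 0 mitotic calls with all libraries, voom with quality weights called 4 in GEM, 10 in IGEL and 12 in LIGEL, while DESeq2 called 0 in each. Without PBS replicate 5, edgeR called 0, 2 and 11, DESeq2 called 11 in IGEL and 12 in LIGEL, and voom called 11, 12 and 12. Without that library, RLE scaling called 1 in IGEL and 11 in LIGEL, no composition factor called 10 in LIGEL, and a term for columns A1 to A3 called 8 in IGEL and 11 in LIGEL. Leaving out a further library gave 0 to 1 mitotic calls in GEM, 0 to 11 in IGEL and 0 to 12 in LIGEL, with 9 without LIGEL replicate 4. In IGEL the 11 came without PBS replicate 1. In LIGEL the 0 came without PBS replicate 2. Leaving out 1 library from all 24 gave mitotic medians from -0.67 to -0.25 in GEM, from -0.84 to -0.43 in IGEL and from -1.02 to -0.61 in LIGEL. Between treated groups, single mitotic members changed sign in 14 of 744 values for IGEL against GEM, 23 for LIGEL against IGEL and 0 for LIGEL against GEM. Of the other members, 0 were called with all libraries. DESeq2 called 4 in LIGEL (Kif3c, Kifc3, Kif26a and Kif12) and voom 2 (Kif3c and Kifc3). Without PBS replicate 5, edgeR called 1 in LIGEL, RLE scaling 1, DESeq2 2 in LIGEL and 1 in IGEL, voom 3 in LIGEL, and leaving out a further library 0 to 1. Without a composition factor, the median of all genes moved by 0.09 to 0.13 against PBS, and that of the other members in LIGEL was 0.10 in place of -0.06, while the mitotic one was -0.76. With a replicate block, the mitotic medians were -0.41, -0.58 and -0.76 with 0 calls. Same-numbered tumours had correlations of deviations over 0.1 in 14 of 36 pairs (median -0.06), so the numbers did not pair the samples in general. Treated tumours numbered 1, all in columns A1 to A3, correlated at 0.53 to 0.71, and those numbered 4 at 0.48 to 0.63. Treated tumours of the other numbers had -0.57 to 0.19. Whether some of these tumours share a batch was not tested. The cause of the changes between runs was not tested either. Low counts limit Kif12, whose lowest library held 2 reads.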
